A study of Homo sapiens with 6 samples.

Results

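The genes described here are 10 genes of the circadian clock listed as regulated through E-boxes: PER1, PER2, PER3, CRY1, CRY2, NR1D1, NR1D2, BHLHE40, BHLHE41 and DBP. They are 10 of 20175 human protein-coding genes in the annotation used. The genes were taken from a list, and a Myc peak was given to a gene when its summit, the base of highest signal, lay at most 5 kb from where one of the gene's basic transcripts begins (the transcription start site, TSS). Chromatin immunoprecipitation sequencing (ChIP-seq) with the Myc antibody D3N8F was done in parental MDA-MB-231 cells, a human triple-negative breast cancer line, and in TKO cells, the same line after deletion of TXNIP by CRISPR-Cas9. Each cell line had 2 Myc libraries and 1 library of input chromatin. Both were grown in the same serum-containing medium without a drug, and TKO cells descend from single-cell clones, so that loss of TXNIP and clonal differences cannot be told apart. The comparison asked whether TXNIP, the thioredoxin interacting protein that restrains glucose uptake, changes where Myc sits on the genome. No source used here says whether the cultures were synchronised or at what hour they were fixed. Peak lists carry no gene expression, so neither the loss of TXNIP nor the identity of the cells could be checked in them.

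In the clock, the transcription factors CLOCK and BMAL1 bind as a pair to the E-box, the palindrome CACGTG, and switch on the genes named here. The PER and CRY proteins then return to block CLOCK and BMAL1. NR1D1 and NR1D2 encode the REV-ERB nuclear receptors that repress BMAL1, BHLHE40 and BHLHE41 encode the DEC repressors that themselves bind E-boxes, and DBP encodes an activator that carries the rhythm to output genes through another element, the D-box. Myc, paired with Max, binds the same CACGTG letters.

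In total, 34 E-boxes lay within 5 kb of a TSS of these genes, 17 of them within 1 kb. An E-box lay within 1 kb of a TSS in 8 of the 10 genes and in 35.5% of all protein-coding genes. The exceptions were CRY1, whose only E-box lay 2163 bp upstream, and CRY2, which had none within 5 kb, so the listing did not hold for them by the letters CACGTG near the TSS. The genes were listed for their E-boxes, so this share describes the choice and is no result. The following stretches of GRCh37, which is the hg19 build of the files, are shown because a Myc peak lay over them in both TKO libraries. They are written 5′ to 3′ on the strand of the gene with each E-box in capitals. The first 3 belong to PER1 on chromosome 17, minus strand, and lie 170 bp before the main TSS at 8055722 and 181 and 365 bp before the upstream TSS at 8059678. They are chr17:8055860-8055925, chr17:8059827-8059892 and chr17:8060011-8060076. The NR1D1 stretch, chr17:38255366-38255446 on the minus strand, holds a pair of E-boxes 15 bp apart in the gene's intron, 1428 and 1443 bp after the TSS. The DBP stretches, chr19:49137923-49137988 and chr19:49137806-49137835 on the minus strand, lie 62 and 37 bp before the nearest TSS of 2 different transcripts, both of which start inside the gene. Further E-boxes under a peak in both TKO libraries are not printed. They lie 1147 bp after the NR1D1 TSS, 1106 bp before that of BHLHE40 and 45 bp before that of BHLHE41.
PER1, 170 bp upstream: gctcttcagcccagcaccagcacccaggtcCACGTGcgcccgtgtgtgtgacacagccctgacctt
PER1, 181 bp upstream: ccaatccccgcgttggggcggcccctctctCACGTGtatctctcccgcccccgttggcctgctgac
PER1, 365 bp upstream: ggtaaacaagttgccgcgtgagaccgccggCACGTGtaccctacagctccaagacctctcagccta
NR1D1, paired E-boxes: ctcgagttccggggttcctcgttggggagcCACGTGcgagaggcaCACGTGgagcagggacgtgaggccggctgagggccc
DBP, 62 bp upstream: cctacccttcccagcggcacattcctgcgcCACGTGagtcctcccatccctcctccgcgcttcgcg
DBP, 37 bp upstream: agcaggcgtcagCACGTGactcggccctga

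Other E-boxes of the same genes had no peak over them in any of the 4 lists. Those of PER3 and NR1D2 are shown because each gene has a pair near its TSS. The PER3 pair, 54 bp apart in chr1:7843897-7844016 on the plus strand, lies 421 and 367 bp before the TSS. The NR1D2 pair, 50 bp apart in chr3:23987427-23987542 on the plus strand, lies 682 and 732 bp after the TSS.
PER3, paired E-boxes: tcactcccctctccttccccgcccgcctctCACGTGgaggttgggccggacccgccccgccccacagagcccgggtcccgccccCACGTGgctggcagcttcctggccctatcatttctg
NR1D2, paired E-boxes: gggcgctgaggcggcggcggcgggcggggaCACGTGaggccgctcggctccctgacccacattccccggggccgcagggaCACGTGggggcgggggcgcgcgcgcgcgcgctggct

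The lists as deposited held 3720 and 5719 peaks in parental replicates 1 and 2 and 27213 and 25887 in TKO replicates 1 and 2. Parental lists averaged 4720 ± 1414 peaks (SD, n = 2) and TKO lists 26550 ± 938 (SD, n = 2), a ratio of 5.63. The exact two-sided permutation test gave p = 0.333, the smallest that 2 libraries against 2 allow. No comparison of single values between the cell lines could therefore pass 0.05 by this test, the one used throughout. The authors describe the 2 Myc libraries of each cell line as biological replicates. The labels do not say how separate the cultures were, so p compares these libraries only. Read depth is not in the lists. The genome-wide background recovered from them, in reads over 1 fragment length, was between 0.971 and 1.34 in the 4 libraries.

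Myc peaks were listed at most of the clock genes in TKO cells and at few in parental cells. Of the 10 genes, 1 had a peak in parental replicate 1 and 3 had one in parental replicate 2, against 9 in each TKO replicate. The same rule gave a peak to 13.9% and 15.5% of all protein-coding genes in parental replicates 1 and 2 and to 54.5% and 55.4% in TKO replicates 1 and 2. The share of clock genes was near that background in parental replicate 1 and above it in parental replicate 2 and in both TKO libraries. The genes were chosen with earlier results of these data known, and no test was made over the list. PER1, PER2, CRY1, CRY2, NR1D2 and BHLHE41, 6 of the 10, had a peak in both TKO lists and in neither parental list, a pattern shared by 32.4% of all genes. NR1D1 alone had a peak in all 4 lists, as did 10.9% of all genes. BHLHE40 and DBP had one in parental replicate 2 and in both TKO lists. PER3 had none in any list.

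**Figure D1:**
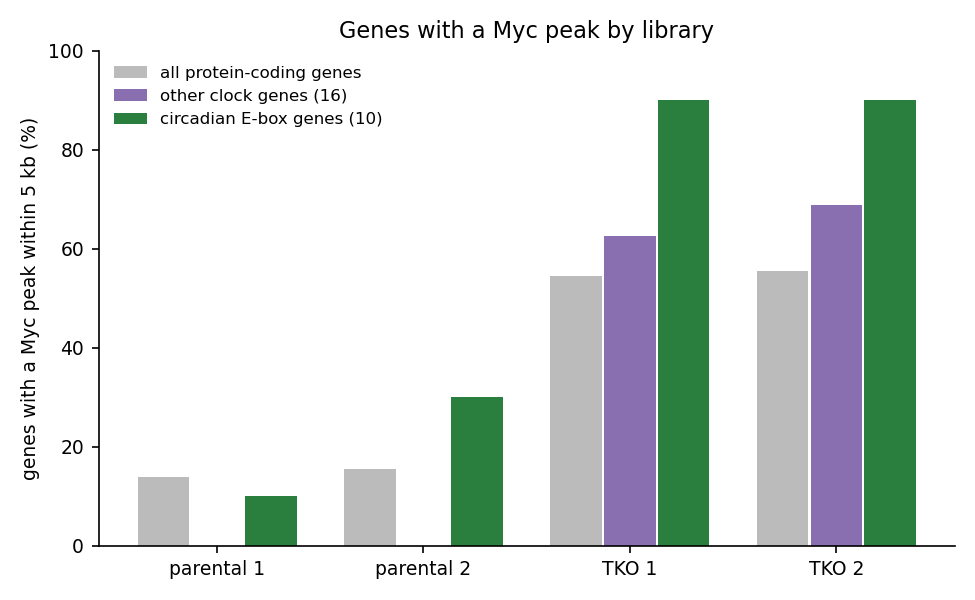
Percentage of genes with a Myc peak summit within 5 kb of a TSS (y axis) in each of the 4 Myc libraries (x axis), with bars for all 20175 protein-coding genes, for the 16 other clock genes and for the 10 circadian E-box genes. No other clock gene had a parental peak, and 9 of the 10 E-box genes had one in each TKO library.

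The contrast depended on the length of the lists. When each list was cut to its 3720 peaks of highest fold, the length of the shortest list, 1, 2, 2 and 3 of the 10 genes kept a peak in parental replicates 1 and 2 and TKO replicates 1 and 2. The background became 13.9%, 10.9%, 15.6% and 16.1% of genes. Only NR1D1, BHLHE40 and DBP occurred in these shortened lists, NR1D1 in parental replicate 1 and TKO replicate 2, and BHLHE40 and DBP in parental replicate 2 and both TKO replicates. Among peaks of a fold of at least 5, taken from the full lists, 0, 1, 8 and 8 of the genes had one, BHLHE40 being the parental gene, against 9.36%, 9.37%, 42.6% and 46.1% of all genes.

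A further list of 16 clock genes was taken by the same rule. These genes had no peak in either parental list and a peak at 10 and 11 genes in TKO replicates 1 and 2. Of all protein-coding genes, 13.9% and 15.5% had one in parental replicates 1 and 2 and 54.5% and 55.4% in TKO replicates 1 and 2. No test was made over these 16 genes. CLOCK itself had a peak at fold 8.58 and 5.79 in TKO replicates 1 and 2. Fold is the enrichment of the summit over its local background, with 1 added to each. The peak of CSNK1E, a kinase that marks PER proteins for turnover, had a fold of 13.4 and 12.4. BMAL1 had a peak in TKO replicate 2 only, of fold 3.26, and the ROR genes, which activate BMAL1 where REV-ERB represses it, had none.

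Near the 10 genes there were 1 and 7 peaks in parental replicates 1 and 2 and 20 and 22 in TKO replicates 1 and 2. The mean over TKO libraries was 5.25 times the mean over parental libraries. Leaving out parental replicate 1 gave a ratio of 3.0 and leaving out parental replicate 2 gave 21.0, so the ratio rested on 1 parental library. The clock genes with a peak had a mean of 2.22 and 2.44 peaks each in TKO replicates 1 and 2, whereas all genes with a peak had 1.63 and 1.59. The positions recurred between TKO replicates. Of the 20 peaks in TKO replicate 1, 19 overlapped a peak of TKO replicate 2, and of the 22 in TKO replicate 2, 21 overlapped one of TKO replicate 1. Overlapping peaks had summits a median of 56 bp apart and at most 333 bp apart. The overlap of all peaks between the TKO lists is not given here, so these counts are not read as particular to the clock genes.

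**Figure D2:**
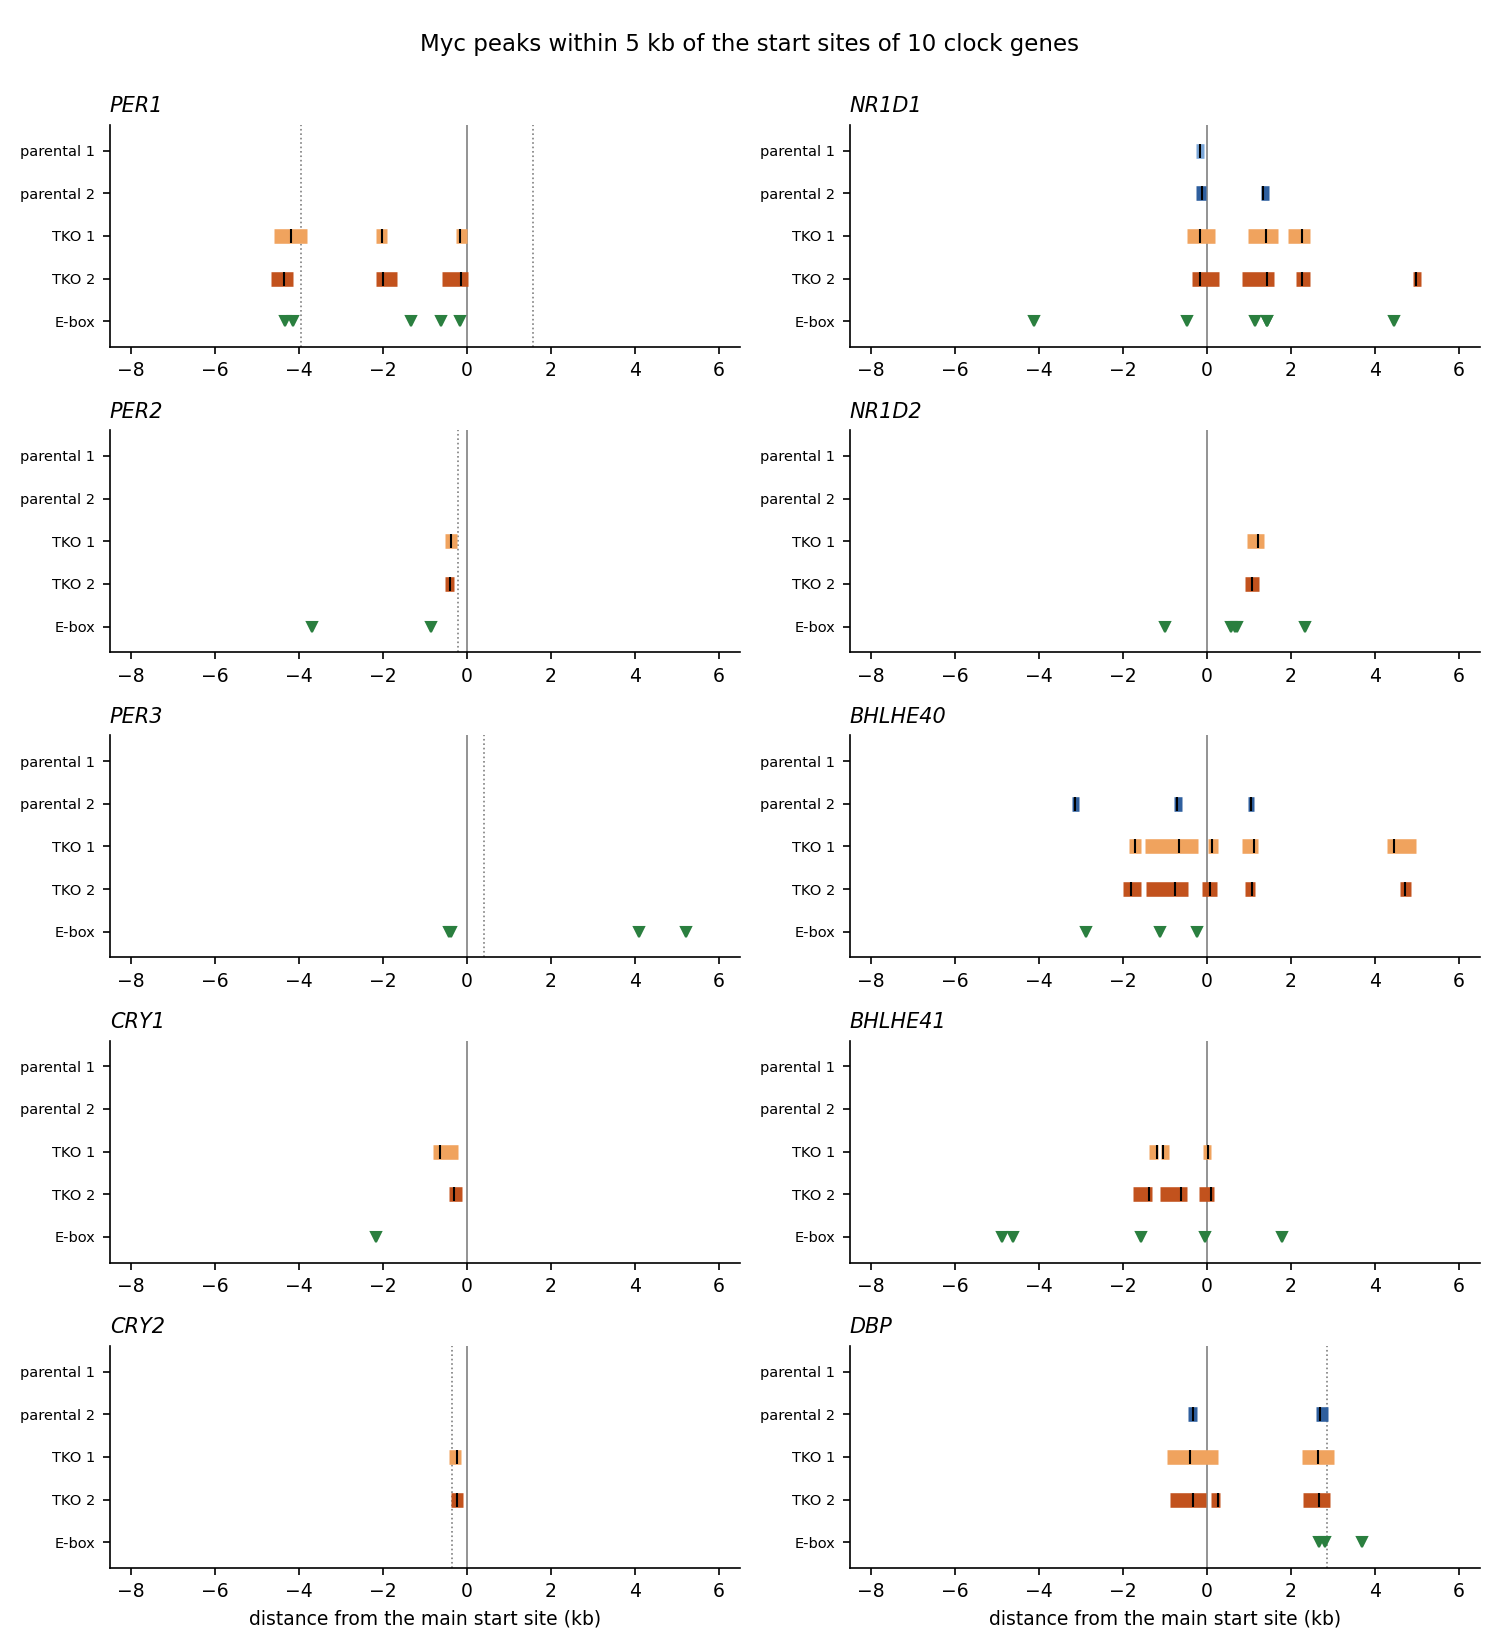
Each panel shows a gene, with the distance from its main TSS in kb on the x axis (negative is upstream, dotted lines are other start sites) and the 4 Myc libraries on the y axis. Bars are peaks within 5 kb of any TSS, black ticks are summits and green triangles are CACGTG E-boxes; the TKO peaks of replicates 1 and 2 lie at the same places in most panels, and PER3 is empty.

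Within a list, peaks were compared by their percentile by fold, where 100 is the strongest peak of the list. The strongest peaks of the 9 clock genes had a median percentile of 76.3 and 72.8 in TKO replicates 1 and 2. Over all genes with a peak the medians were 71.8 and 71.1, and 5 of the 9 clock genes were above that median in each library. The ranks of the clock genes were thus near those of genes with a Myc peak in general. DBP and BHLHE40 were the highest in both TKO libraries, at 92.3 and 93.7 for DBP and 89.7 and 93.5 for BHLHE40. Their ranges overlapped each other. The lowest value was 33.8 in TKO replicate 1, for BHLHE41, and 9.00 in TKO replicate 2, for CRY1. PER2, at 84.7 and 38.5, and CRY1, at 80.4 and 9.00, differed most between TKO replicates 1 and 2.

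**Figure D3:**
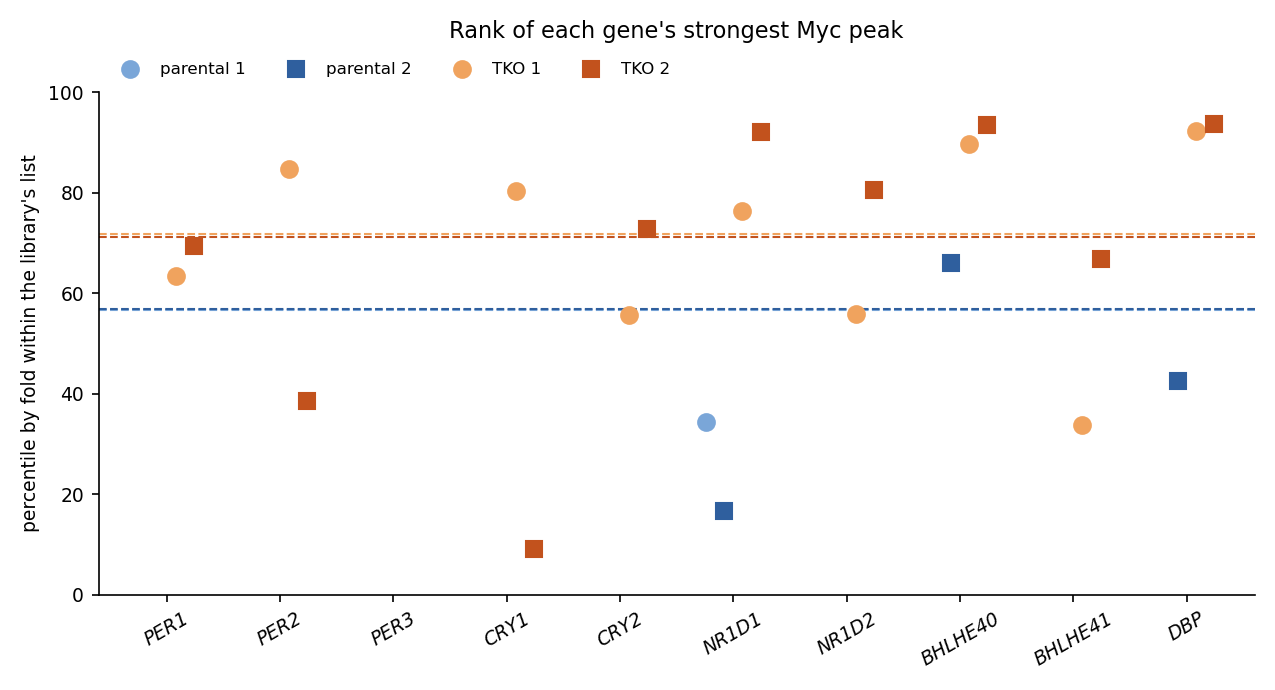
Percentile by fold of each clock gene's strongest Myc peak within its own list (y axis, 0 to 100) for the 10 genes (x axis), with circles for replicate 1 and squares for replicate 2. Dashed lines are the medians over all genes with a peak; DBP and BHLHE40 sit near the top in both TKO replicates, while CRY1 spans 9.00 to 80.4.

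The PER genes encode the limiting repressors of the loop, and they differed from one another. PER1, on chromosome 17, had no parental peak, the nearest parental summits being 17088 and 17181 bp from its TSS. In both TKO lists it had 3 peaks at matching places, all with summits inside an intron of another annotated gene, ENSG00000263620. The strongest lay 161 and 128 bp before the main TSS, in an intron of the longer PER1 transcript, at fold 6.16 and 6.80. Its summit held 30 and 26 reads, 22.3 and 26.8 times the genome background. For comparison, the lowest summits in the parental lists were at 9.49 and 8.06 times the background, and 10% of parental peaks lay below 15.3 in each list. The E-box 170 bp upstream lay 9.5 and 42.5 bp from the summit in TKO replicates 1 and 2.

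A second PER1 peak stood at the upstream TSS, with summits 226 and 406 bp before it and fold 5.78 and 6.69. It covered both E-boxes shown above for that start, and the nearest was 44.5 and 40.5 bp from the summit. Thus PER1 was the only one of the 10 genes with an E-box within 50 bp of the summit at 2 separate start sites, judged in TKO cells. CRY1, NR1D1, NR1D2, BHLHE40 and BHLHE41 have 1 start site each among basic transcripts, so they could not meet this rule. The remaining PER1 peak, 1926 and 1959 bp after the upstream TSS, had a fold of 3.22 and 3.70 and no E-box under it. Its local background was 10.5 and 7.38 reads, against 4.03 and 2.97 reads at the main promoter peak, and its summit held 36 and 30 reads, more than the promoter summit in both libraries.

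PER2, the partner of PER1 on chromosome 2, had 1 peak in each TKO list and none in a parental list. It lay 168 and 185 bp before the upstream TSS at 239197467. Its fold was 8.64 in TKO replicate 1 and 5.15 in TKO replicate 2, from 23 and 15 reads at the summit. A long noncoding RNA, ENSG00000283635, starts 133 and 116 bp from these summits, closer than PER2 itself, so the peak cannot be given to one of them. The E-box 635 bp upstream of PER2 was not under the peak and lay 467.5 and 450.5 bp from the summits.

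PER3, on chromosome 1, was the gene without a peak. The nearest summits were 397511 and 176853 bp away in parental replicates 1 and 2 and 169482 and 118182 bp away in TKO replicates 1 and 2. It has 4 E-boxes within 5 kb, including the pair printed above, and none was under a peak. A missing peak says that no summit passed the caller's threshold, not that Myc was absent.

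The cryptochromes CRY1 and CRY2 encode the direct inhibitors of CLOCK and BMAL1. Each had 1 peak per TKO list and none in a parental list, and neither peak held a CACGTG. The CRY1 peak lay on chromosome 12 with summits 632 and 299 bp upstream of the TSS, the most distant pair of overlapping summits among the 10 genes. Its fold was 7.87 in TKO replicate 1 and 3.84 in TKO replicate 2, and the summits held 30 and 17 reads. Both summits lay in an intron of a long noncoding RNA, ENSG00000257548, which starts 883 and 550 bp from them, farther than CRY1. The CRY2 peak, on chromosome 11, was more alike between replicates. It lay 116 and 133 bp after the upstream TSS, in the 5′ UTR and in coding sequence, at fold 5.67 and 7.12 with 20 reads at the summit in both libraries. No E-box lay within 5 kb of a CRY2 TSS.

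NR1D1, which encodes REV-ERBα, was the only one of the 10 genes with a Myc peak in all 4 lists. Its promoter summit lay 149, 104, 152 and 155 bp before the TSS at 38256842 on chromosome 17 in parental replicates 1 and 2 and TKO replicates 1 and 2. In the same order the fold was 4.86, 3.99, 7.31 and 8.47. Both TKO values were above both parental values. The mean fold was 4.42 ± 0.613 (SD, n = 2) in parental cells and 7.89 ± 0.819 (SD, n = 2) in TKO cells, a difference of 3.47 with p = 0.333 by the exact permutation test, the smallest it can give. The peak was 178 and 239 bp wide in parental cells and 663 and 638 bp wide in TKO cells.

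The summit of this promoter peak held 51, 35, 83 and 70 reads in that order. Multiplied by the scale recovered for each list, 0.837, 0.997, 1.0 and 1.0, these were 37.2, 28.2, 61.7 and 72.1 times the genome background. Parental cells averaged 32.7 ± 6.37 (SD, n = 2) and TKO cells 66.9 ± 7.35 (SD, n = 2), and the exact permutation p was 0.333. Local background was high around NR1D1, at 8.0, 8.0, 10.5 and 7.38 reads, where the median peak of each list had 4.0, 4.38, 4.03 and 2.65. Since fold divides by that local value, the rank of the peak depended on the measure. It stood at percentiles 34.4, 16.6, 76.3 and 83.4 by fold and at 87.8, 76.4, 97.5 and 98.2 by summit reads over genome background.

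The promoter summit of NR1D1 had no CACGTG within 50 bp, and the nearest was between 306.5 and 357.5 bp away in the 4 lists. The variant AACGTG, which reads CACGTT on the other strand and is called the E-prime box in clock genes, lay within 50 bp of the summit in parental replicate 1 and both TKO replicates. It is printed in capitals on the minus strand of chr17:38256975-38257040. Within 50 bp of the summit, CACGTT on either strand occurred in 4.75%, 3.92%, 3.082% and 2.88% of all peaks within 5 kb of a protein-coding TSS in parental replicates 1 and 2 and TKO replicates 1 and 2, so the match is a description of this sequence and not a mapped site.
NR1D1, promoter: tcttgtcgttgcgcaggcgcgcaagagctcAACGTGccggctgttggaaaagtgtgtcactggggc

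The paired E-boxes of the NR1D1 intron were under a peak in 3 lists. Its summit lay 1334 bp after the TSS in parental replicate 2 and 1416 and 1432 bp after it in TKO replicates 1 and 2. The nearest E-box centre was 94.5 bp from the summit in parental replicate 2, 12.5 bp in TKO replicate 1 and 3.5 bp in TKO replicate 2. The fold was 3.49, 7.14 and 10.9 and the summits held 34, 58 and 56 reads. In TKO replicate 2 this was the strongest peak of the gene by fold, although its summit held fewer reads than the promoter summit, 56 against 70. One more E-box, 1147 bp after the TSS, lay under the intron peak in TKO cells. Parental replicate 1 had no peak there. Taking each list's strongest NR1D1 peak, the mean fold was 4.42 ± 0.613 (SD, n = 2) in parental cells and 9.12 ± 2.55 (SD, n = 2) in TKO cells, a difference of 4.69, again with an exact permutation p of 0.333. Further into the gene, a peak 2271 and 2269 bp after the TSS had summits 2 bp apart in the TKO replicates, at fold 6.63 and 6.60, with no E-box under it.

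**Figure D4:**
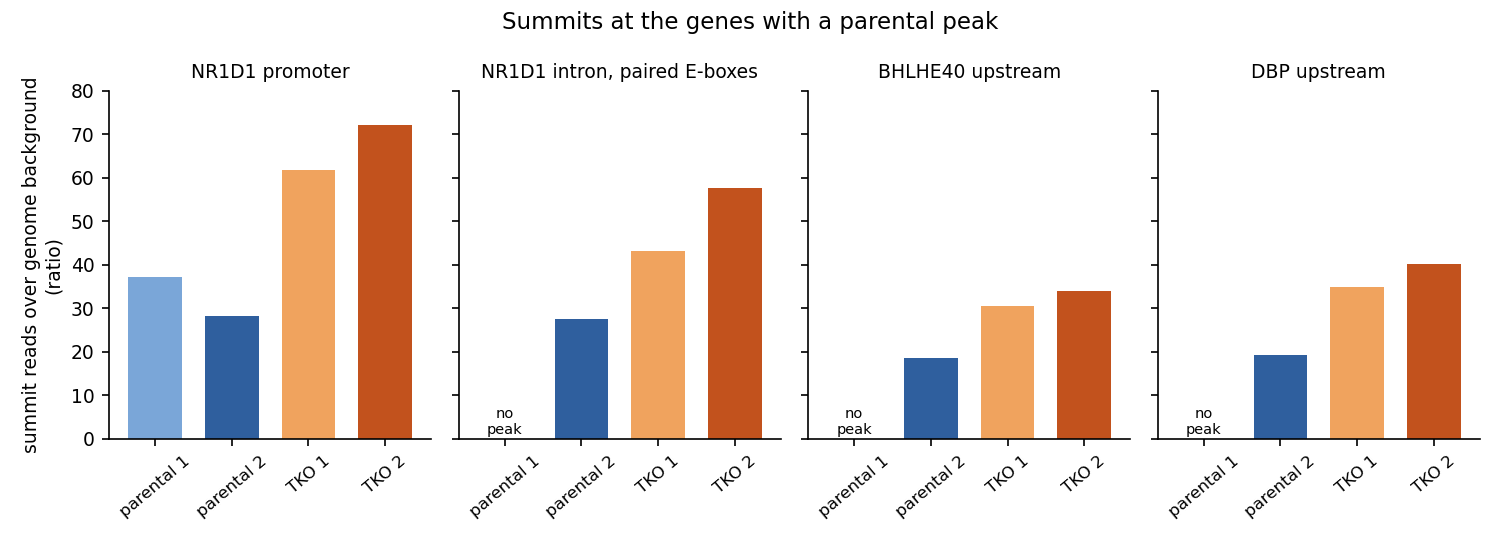
Reads at the summit, multiplied by the scale of the list and divided by its genome background (y axis, a ratio), at 4 places near NR1D1, BHLHE40 and DBP, with 1 bar for each Myc library. At each of these chosen places both TKO bars are above every parental bar, and a place without a peak in the list is marked and has no value. Other places with a parental peak are not drawn. At the BHLHE40 peak 1047 to 1120 bp after the TSS, the ratio was 20.95 in parental replicate 2 and 23.8 and 20.6 in TKO replicates 1 and 2. At the internal DBP peak it was 21.8, 26.8 and 23.7 in that order.

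NR1D2, which encodes REV-ERBβ on chromosome 3, had 1 peak in each TKO list and no parental peak. The summits lay 1223 and 1089 bp after the NR1D2 TSS, in an intron, at fold 5.68 and 8.04. They were only 82 and 216 bp from the TSS of NKIRAS1, a regulator of NF-kappaB signalling, and lay in its UTR. When a peak was given only to the gene with the nearest protein-coding TSS, NR1D2 lost its peak. Under that rule 1, 3, 8 and 8 of the 10 genes had one in parental replicates 1 and 2 and TKO replicates 1 and 2, against 11.1%, 12.5%, 47.8% and 48.5% of all genes. None of the 5 E-boxes within 5 kb of NR1D2, the printed pair included, was under it.

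BHLHE40, which encodes DEC1, had 3 peaks in parental replicate 2 and 5 in each TKO list, the most of any of the 10 genes. No TKO peak overlapped the parental one 3135 bp upstream of the TSS, which had a fold of 5.54. The strongest BHLHE40 peak stood 712 bp upstream of the TSS on chromosome 3 in parental replicate 2. In TKO replicates 1 and 2 it stood 649 and 766 bp upstream. Its fold was 5.96, 9.94 and 11.5, and its summit was 18.5, 30.5 and 34.0 times the genome background. Both TKO values exceeded the parental one on both scales. With no peak in parental replicate 1, there was no mean or test. The peak was 183 bp wide in parental replicate 2 and 1260 and 1008 bp wide in TKO, against a median of 463 and 469 bp over the strongest peaks of all genes in TKO. An E-box 1106 bp upstream lay under the TKO peak in both replicates but not within 50 bp of its summit. The region is also inside an intron of the long noncoding RNA BHLHE40-AS1, whose start is 70 to 143 bp from the summits that lie 1047, 1120 and 1072 bp after the BHLHE40 TSS.

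The other DEC gene, BHLHE41 on chromosome 12, had peaks in TKO only, 3 in each list, with at most 16 reads at the summit. At the TSS itself the summits lay 36 and 92 bp downstream, in the 5′ UTR, with fold 4.68 and 6.58 and with 15 and 16 reads. The E-box 45 bp upstream of the TSS was under this peak in both libraries, 81.5 and 137.5 bp from the summit. The strongest peak of the gene differed between replicates, being that at the TSS in TKO replicate 1 and one 1384 bp upstream in TKO replicate 2. A long noncoding RNA, ENSG00000256894, starts 196 bp from that upstream summit. It starts 146 and 14 bp from the upstream summits in TKO replicate 1 and 424 bp from the other in TKO replicate 2. Each is closer to it than to BHLHE41, so the upstream peaks cannot be given to one of them.

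DBP, the output gene on chromosome 19, had 2 peaks in parental replicate 2, and 2 and 3 in the TKO replicates. Its strongest peak stood 327 bp upstream of the main TSS in parental replicate 2 and 395 and 338 bp upstream in TKO replicates 1 and 2. The fold was 4.91, 10.96 and 11.6, and the summits were 19.3, 34.96 and 40.2 times the genome background. The parental value was below both TKO values. The pseudogene SEC1P starts 365, 297 and 354 bp from these summits, as near as DBP. No CACGTG was found under this peak.

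The second DBP peak lay inside the gene, 49, 83 and 61 bp before an internal TSS at 49137893, and covered both printed DBP E-boxes in parental replicate 2 and both TKO lists. The nearest E-box centre was 13.5, 20.5 and 1.5 bp from the summit in that order. Its fold was 3.49, 10.6 and 8.57, from 27, 36 and 23 reads, with a local background of 7.0, 2.496 and 1.80 reads. It was the one place near the 10 genes where a parental summit had a CACGTG within 50 bp.

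Across the 10 genes, peaks covered 0, 4, 12 and 11 of the 34 E-boxes in parental replicates 1 and 2 and TKO replicates 1 and 2. Of all E-boxes within 5 kb of a protein-coding TSS, 3.21%, 3.2%, 11.4% and 10.7% were covered in the same order. The covered E-boxes belonged to NR1D1 and DBP in parental cells and to PER1, NR1D1, BHLHE40, BHLHE41 and DBP in TKO cells. The TKO lists had 10 covered E-boxes in common. Of the 34, 21 were under no peak in any list, among them 9 of the 17 within 1 kb of a TSS. For these counts no share over all E-boxes is given here, so they are not read as particular to the clock genes.

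Most summits near the clock genes were not at an E-box. Within 50 bp of the summit, CACGTG was found in 0 of 1, 1 of 7, 4 of 20 and 4 of 22 peaks in parental replicates 1 and 2 and TKO replicates 1 and 2. The share over all peaks within 5 kb of a protein-coding TSS was 22.4%, 18.4%, 8.48% and 7.33%. When only the strongest peak of each gene was taken, 0 of 1, 0 of 3, 1 of 9 and 2 of 9 had the E-box, and the share over all genes with a peak was 22.0%, 18.9%, 10.1% and 8.47%. The 3 genes with an E-box within 50 bp of any TKO summit were PER1, NR1D1 and DBP. No test was made on so few peaks.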

How the data were processed

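Myc ChIP-seq was done in parental MDA-MB-231 and TKO cells with 2 libraries each (parental and TKO replicates 1 and 2 in the titles). The other 2 samples, input chromatin, had no peak list analysed here. The authors aligned reads to hg19 with NovoAlign 3.08.02 and called peaks in each library on its own with MACS2 2.1.1.20160309, per the labels, with input as control. The deposited lists give fold, −log10 p-values and −log10 q-values, and a score, which is 10 times the deposited −log10 q-value without decimals. Fold is the ratio of reads at the summit, on the scale of the list, to their local background, with 1 added to each. The lowest −log10 q-value was 2.03 to 2.07, so the lists end at a threshold on q. How duplicate reads were treated is not given in the sources used here.

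Summits were assigned to genes with GENCODE v44 lifted to GRCh37, over 20175 protein-coding genes and 56298 start sites of basic transcripts. A summit near several start sites of a gene was placed by the nearest. Motifs were CACGTG (E-box, a palindrome) and CACGTT on either strand (E-prime, no overlap with the E-box), whole within 50 bp of the summit. The share of all protein-coding genes, peaks or E-boxes meeting each rule was computed as the background. Summit reads were solved from the authors' fold and p-value, and were whole within 0.02 reads for 100% of peaks in each list. For ratios to the genome background they were multiplied by the scale recovered for the list. That scale was 0.837 and 0.997 in parental replicates 1 and 2 and 1.0 in both TKO replicates. Local and genome backgrounds are given on that scale, whereas reads are not. The genome background was the lowest local background of a list. A read was counted over 1 fragment, and the narrowest peaks, 140, 151, 182 and 201 bp, differ between libraries, so that reads and folds of different lists are not on exactly the same scale.

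Values of all 4 libraries were compared by the exact two-sided permutation test over 6 splits. The members, the further clock genes, the tests and the alternatives were chosen with earlier results of these data known. All 10 genes are named, and other genes where a TSS lay nearer to a peak or a rank is given. Of the further genes, CSNK1E, CLOCK and BMAL1 were named. Alternatives were TSS windows of 1 kb and 2 kb, all transcripts, stricter peaks, equally long lists, peaks nearest to the gene, other motif windows, other ranking measures, each library left out and a replicate block. Same-numbered libraries share only a number. Software was Python 3.11.15, samtools 1.23.1, pysam 0.24.0, pandas 2.3.3, numpy 2.4.6, scipy 1.17.1 and matplotlib 3.10.9, and the assignment and the read recovery were tested on simulated data.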

Additional observations from a re-analysis of the deposited data

How the results depend on the processing

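The number of clock genes with a peak, 7.0 more in TKO than in parental cells as a difference of means, stayed at 6.0 to 8.0 with each library left out and fell to 1.0 with equally long lists. Peaks near the genes, 5.25 times as many in TKO, gave ratios of 3.0 to 21.0 with each library left out, 1.5 with equally long lists and 15.0 at a fold of at least 5. The whole lists had a ratio of 5.63, and 4.64 to 7.14 with each library left out. Strongest TKO peaks with an E-box near the summit made up 16.7%, which became 5.56% over all transcripts, 44.4% with the E-box anywhere in the peak, 27.8% with the E-prime variant added and 11.1% to 22.2% with each library left out. The mean percentile of the strongest TKO peaks, 69.4, became 71.4 over all transcripts, 73.1 at a −log10 q-value of at least 5, 75.4 at a fold of at least 5, 92.1 with equally long lists and 64.9 ranked by −log10 p-value. Percentiles stayed those of the full lists, so the fold cut-off and the equally long lists, which drop weak peaks, could not lower this mean. Ranked by summit reads, an alternative chosen after seeing the data, it was 56.5, and with each library left out it was 68.5 to 70.3. The fold of the strongest NR1D1 peak differed by 4.69, and by 2.89 to 6.498 with each library left out, values with no test. The cause of these shifts was not tested beyond the shorter lists and fewer libraries that the alternatives set. No alternative reversed the direction of a difference or ratio between the cell lines. The E-box share and the mean percentile, taken in TKO cells alone, have no direction that could reverse.

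In a replicate block of same-numbered libraries, the ratio of peaks near the genes was 7.93, the ratio of the whole lists 5.75, the difference in clock genes 7.0 and that in NR1D1 fold 4.69. The deviations of same-numbered libraries correlated at 0.0873 over the fold of 2190 genes with a peak in all 4 lists, so the libraries were taken to share only a number.

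These values are limited by the peak threshold, since Myc below it is not listed, and by list length, since the contrast in counts was 1.0 gene with equally long lists. Input and Myc read depth were not in the lists. A peak within 5 kb of several genes was given to each of them.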
